A study of Mus musculus with 4 samples.

Results

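The transcripts of 9 Toll-like receptors (Tlr1, Tlr2, Tlr3, Tlr4, Tlr6, Tlr7, Tlr8, Tlr9 and Tlr13) and of the co-receptor Cd14 were followed in mouse peritoneal macrophages. These 10 genes were chosen by name and matched by their NCBI gene IDs, and they make up 10 of the 16403 genes listed in the series. FPKM, the deposited level, is the number of fragments per kilobase of transcript, scaled to the mapped reads of the library, so it allows levels of genes of unequal length to be set beside each other. All 10 genes were listed in every library.

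Total RNA was sequenced from 4 groups of C57BL/6 cells with 1 library each. The cells came from wild-type mice or from mice with loxP-flanked Trim24 (TIF1a) and a LysM-Cre driver, called TIF1a-KO in the labels, in which Cre made from the Lyz2 locus deletes Trim24 in myeloid cells. The mice were 6 to 8 weeks old. All 4 groups received 4% thioglycolate in the peritoneum, were lavaged at least 4 days later and adhered for 4 h. The cells were incubated overnight and then starved overnight in medium with 0.5% serum. One culture of each genotype was then left untreated (nontreat) and the other was given mouse IL-4 at 20 ng/mL for 6 h. How many mice went into a library is not given in the sources used here. Since each group is 1 library, no difference could be set against a spread between replicates. The tests on reads compare libraries, not conditions, and apart from the additive fit described below their errors cover counting only.

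Toll-like receptors are sensors of microbial molecules in macrophages and dendritic cells. TLR2 with TLR1 or TLR6 binds bacterial lipopeptides at the cell surface, and TLR4 with MD-2 binds lipopolysaccharide that CD14 delivers. TLR3, TLR7, TLR8, TLR9 and TLR13 sit in endosomes, are carried there by UNC93B1, and read nucleic acids. IL-4 acts through Stat6 and drives the M2, or alternatively activated, state of macrophages.

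The sequence upstream of 3 of the endosomal receptors is shown because Tlr8 and Tlr13 had the largest IL-4 ratios among the endosomal receptors, in opposite directions, and Tlr9 differed in both IL-4 and genotype comparisons. The sequences are from RefSeq (GRCm38.p6), end at the base before the transcript or before the most upstream annotated exon of the gene, and read 5′ to 3′ on the gene's strand. Of the 10 genes 7 had such windows in the RefSeq table used, with 9 windows in all, and Tlr4, Tlr7 and Cd14 had none. Capitals mark matches to the motifs described next. Tlr8 lies at chrX:167264330-167264579 on the minus strand, Tlr13 at chrX:106143025-106143203 on the plus strand, and Tlr9 at chr9:106222348-106222597 on the plus strand.
Tlr8: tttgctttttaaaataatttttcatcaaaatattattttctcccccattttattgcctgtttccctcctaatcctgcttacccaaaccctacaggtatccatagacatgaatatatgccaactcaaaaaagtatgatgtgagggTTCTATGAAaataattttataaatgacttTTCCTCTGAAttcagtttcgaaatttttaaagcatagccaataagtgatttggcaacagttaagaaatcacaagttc
Tlr13: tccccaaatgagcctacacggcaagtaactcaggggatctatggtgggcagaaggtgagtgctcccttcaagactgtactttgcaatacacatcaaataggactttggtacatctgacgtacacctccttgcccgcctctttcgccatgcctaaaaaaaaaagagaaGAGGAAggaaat
Tlr9: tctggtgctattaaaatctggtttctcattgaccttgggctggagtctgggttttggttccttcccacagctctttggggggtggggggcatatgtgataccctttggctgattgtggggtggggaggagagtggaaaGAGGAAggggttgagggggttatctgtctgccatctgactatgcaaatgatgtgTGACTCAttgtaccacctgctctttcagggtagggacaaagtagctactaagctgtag

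Motif letters were searched on both strands of the 250 bases before each start. TTCNNNNGAA, the spacing preferred by Stat6, was present in 1 of the 9 windows, that of Tlr8, where it covers bases 77 to 68 before the start, and in 5.85% of all 32851 windows. The 3-base spacing TTCNNNGAA was present upstream of Tlr8, in 1 window of Tlr1 (chr5:64932700-64932949), and in 7.02% of all windows. That Tlr1 window precedes a start inside the span of the gene. The PU.1-type core GAGGAA was in 4 of the 9 windows, those of Tlr1, Tlr8, Tlr9 and Tlr13, and in 23.3% of all. In Tlr8 its reverse complement lies inside the Stat6-type match. GAAANNGAAA, the interferon response type, was in 1 window of Tlr6 and in 2.98% of all, and the AP-1-type TGAGTCA was in that of Tlr9 and in 4.46% of all. These are matches of letters and not measured binding.

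The targeted gene was checked first. Trim24 was at 2.55 FPKM in the untreated wild-type library and at 1.48 FPKM in the wild-type IL-4 library, against 0.06 FPKM and 0.14 FPKM in the TIF1a-KO libraries without and with IL-4. The 4 libraries held 11026033 to 11250099 expected reads and 14717 to 14923 listed genes. All 7 macrophage markers were listed in every library with a summed level of 8287 FPKM to 14840 FPKM. Their sum was lower in both TIF1a-KO libraries, where Lyz2, the locus that carries Cre, stood at 5193 FPKM and 4761 FPKM against 11289 FPKM and 10811 FPKM in wild-type. B cell markers summed to 3.71 FPKM to 5.89 FPKM (4 of 5 listed, 3 in every library, Ighm not listed), T cell markers to 1.78 FPKM to 2.61 FPKM (5 of 5 listed), and dendritic cell markers to 0.79 FPKM to 1.18 FPKM (6 of 6 listed, 4 in every library). Neutrophil markers summed to 7.58 FPKM to 11.35 FPKM with Ly6g, S100a9 and Retnlg not listed, and eosinophil and mast cell markers to 3.56 FPKM to 7.87 FPKM. Mesothelial and fibroblast markers summed to 35.25 FPKM and 29.32 FPKM in the wild-type libraries without and with IL-4 and to 17.39 FPKM and 36.22 FPKM in the TIF1a-KO libraries.

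The receptors differed widely in level. In the untreated wild-type library Tlr13 was highest at 93.0 FPKM, followed by Cd14, Tlr7 and Tlr8, and Tlr9 was lowest at 1.84 FPKM. The untreated TIF1a-KO library had the same 5 leading genes in the same order (Tlr13, Cd14, Tlr7, Tlr8 and Tlr2). In both IL-4 libraries the order was Tlr8, Tlr7, Cd14, Tlr13, Tlr4, Tlr1, Tlr6, Tlr2, Tlr3 and Tlr9. The 95% counting interval of the ratio between neighbours in these orders included equal levels only in the untreated TIF1a-KO library, for Tlr7 and Tlr8, for Tlr2 and Tlr1, and for Tlr9 and Tlr3. Tlr5, Tlr11 and Tlr12 had 0 to 2 reads in each library, under the floor of 3 reads.

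**Figure D1:**
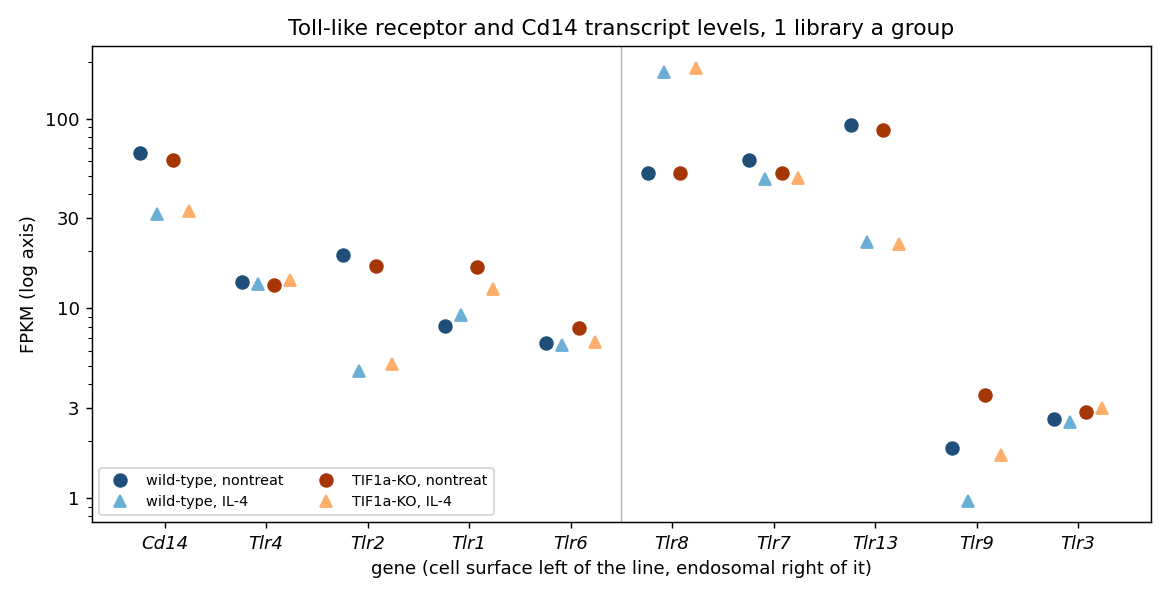
FPKM (log axis) of the 10 genes, 1 point per library, with circles for untreated and triangles for IL-4 libraries, blue for wild-type and orange for TIF1a-KO. Tlr8 lies at 175 FPKM and 186 FPKM in the IL-4 libraries, while Tlr2, Tlr13, Cd14 and Tlr9 lie lower with IL-4 than without it in both genotypes.

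The summed level of the 10 genes stayed between 312 FPKM and 333 FPKM in the 4 libraries, but its make-up changed with IL-4. The 5 endosomal receptors held 64.9% of the sum in the untreated wild-type library and 79.3% in the wild-type IL-4 library, and 63.3% and 78.6% in the TIF1a-KO libraries. Tlr8 alone went from 16.1% to 55.8% in wild-type and from 16.6% to 55.9% in TIF1a-KO. Without Tlr8 the endosomal receptors summed to 158 FPKM and 146 FPKM in the untreated libraries of wild-type and TIF1a-KO, and to 74.0 FPKM and 75.6 FPKM in the IL-4 libraries. Cd14, Tlr4, Tlr2, Tlr1 and Tlr6 together summed to 113 FPKM and 115 FPKM untreated and to 65.1 FPKM and 71.3 FPKM with IL-4. In whole-culture RNA, fewer cells of a type and less RNA per cell cannot be told apart.

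**Figure D2:**
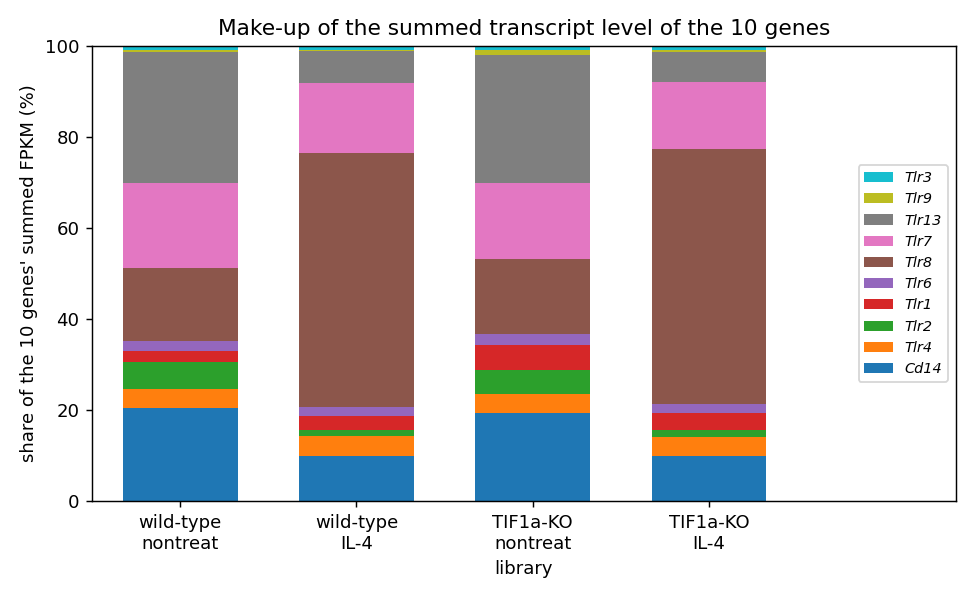
Share of each gene in the summed FPKM of the 10 genes, in percent, 1 bar per library. Tlr8 takes 55.8% and 55.9% of the bars of the IL-4 libraries against 16.1% and 16.6% of the untreated ones, and Tlr13 falls from 28.8% and 28.0% to 7.11% and 6.58%.

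The first comparison asked which receptors differ between IL-4 and untreated libraries of 1 genotype. In each genotype 5 of the 10 genes were called, 1 higher (Tlr8) and 4 lower (Tlr13, Tlr2, Cd14 and Tlr9), and these were the same genes in both. The call needed both an adjusted p below 0.05, from a two-sided Fisher's exact test on the reads of 2 libraries, and a fold larger than 1.5. Of all genes tested in wild-type, 4.91% were called higher and 7.87% lower, and in TIF1a-KO 5.29% and 4.03%. By the fold alone, 5 of the 10 genes passed in each genotype, against 17.5% of genes averaging 1 FPKM or more in wild-type and 13.7% in TIF1a-KO. Over the 10 genes the log2 ratios had a median of -0.19 in wild-type and -0.31 in TIF1a-KO, where the median of all genes tested was -0.03 and 0. The 2 genotypes share no library in this comparison.

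Tlr8, an endosomal receptor encoded on the X chromosome next to Tlr7 (chrX:167241123-167264329), was at 52.05 FPKM in untreated wild-type cells and at 175 FPKM after IL-4. In TIF1a-KO cells it was at 51.65 FPKM and at 186 FPKM. Both IL-4 libraries were thus far above both untreated ones, from 2811 to 2824 expected reads up to 9692 to 10023. Tlr8 rose 3.37-fold in wild-type, a log2 ratio of 1.75 ± 0.03 (counting SE), and 3.60-fold in TIF1a-KO, 1.85 ± 0.03. In an additive edgeR fit over the 4 libraries its IL-4 effect was 1.80 on the log2 scale (adjusted p = 1.7e-09). The Stat6-type and 3-base spacing matches shown above lie upstream of this gene, as they do in 5.85% and 7.02% of all windows. The 3-base match was also found in a window of Tlr1 that lies inside the span of that gene. The part of these matches in the Tlr8 ratios was not tested.

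Tlr7, the sensor of single-stranded RNA, lies 39.05 kb from Tlr8, with no listed gene between them. Its level was 60.3 FPKM untreated and 48.1 FPKM with IL-4 in wild-type, and 52.0 FPKM and 49.0 FPKM in TIF1a-KO. The wild-type ratio, -0.33 ± 0.04, passed the adjusted p (3.2e-13) but not the fold, and the TIF1a-KO ratio was -0.09 ± 0.04 (adjusted p = 0.16). The ratio of Tlr8 to Tlr7 in FPKM went from 0.863 to 3.65 in wild-type and from 0.993 to 3.80 in TIF1a-KO. Neighbouring receptor genes thus had unlike IL-4 ratios in both genotypes.

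Tlr13, the mouse sensor of bacterial 23S ribosomal RNA (chrX:106143275-106160493), stood at 93.0 FPKM and 87.5 FPKM in the untreated libraries of wild-type and TIF1a-KO. With IL-4 it stood at 22.4 FPKM and 21.9 FPKM. It went from the highest of the 10 genes to the fourth, falling 4.14-fold in wild-type (log2 ratio -2.05 ± 0.05) and 3.98-fold in TIF1a-KO (-1.99 ± 0.05). The additive IL-4 effect was -2.02 (adjusted p = 6.4e-10). For Tlr8 and Tlr13 the adjusted p of the Fisher's exact test was smaller than the software could write.

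Tlr9 reads CpG DNA and is best known from B cells and plasmacytoid dendritic cells (chr9:106222598-106226876). Its reads were few, with 71 untreated and 38 with IL-4 in wild-type, and 134 and 65 in TIF1a-KO. In FPKM these were 1.84 and 0.97 against 3.48 and 1.69, so both IL-4 libraries were below the untreated library of the same genotype. Tlr9 fell 1.81-fold in wild-type (log2 ratio -0.86 ± 0.29, adjusted p = 0.0045) and 2-fold in TIF1a-KO (-1.0 ± 0.22, adjusted p = 1.0e-05). Cd79a, part of the B cell receptor, was at 1.17 FPKM to 2.97 FPKM in the 4 libraries, and Siglech, of plasmacytoid dendritic cells, had 0 to 2 reads. The part of such cells in the Tlr9 values was not tested.

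Tlr3, the receptor of double-stranded RNA (chr8:45395665-45411075), was at 2.61 FPKM, 2.52 FPKM, 2.86 FPKM and 2.99 FPKM in the untreated and IL-4 libraries of wild-type and then of TIF1a-KO. Its IL-4 log2 ratios were -0.05 ± 0.18 and 0.06 ± 0.17, and neither was called. A gene model on the opposite strand, Gm45542, overlaps the 5′ part of Tlr3, and whether the counting used strand is not given in the sources used here. The other 9 genes had no overlapping gene model in GENCODE M21.

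At the cell surface, Tlr2 and Cd14 fell and Tlr4, Tlr1 and Tlr6 did not pass the call. Tlr2 binds lipopeptides with Tlr1 or Tlr6 as partner (chr3:83836272-83841824). Its level was 19.1 FPKM and 16.7 FPKM in the untreated libraries of wild-type and TIF1a-KO, and at 4.70 FPKM and 5.12 FPKM with IL-4. Both IL-4 values were lower than both untreated ones. Tlr2 fell 4.00-fold in wild-type (log2 ratio -2.00 ± 0.13, adjusted p = 1.7e-65) and 3.22-fold in TIF1a-KO (-1.69 ± 0.13, adjusted p = 6.8e-45). The additive IL-4 effect was -1.85 (adjusted p = 3.6e-08).

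Cd14, which passes lipopolysaccharide to the Tlr4 complex (chromosome 18, 36725064 to 36726815), was at 66.0 FPKM and 60.3 FPKM untreated in wild-type and TIF1a-KO and at 31.4 FPKM and 32.8 FPKM with IL-4. It fell 2.10-fold in wild-type (log2 ratio -1.07 ± 0.07, adjusted p = 3.1e-51) and 1.84-fold in TIF1a-KO (-0.88 ± 0.07, adjusted p = 1.7e-33).

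Tlr4, the signalling receptor of lipopolysaccharide (chr4:66827551-66846581), held 13.8 FPKM, 13.4 FPKM, 13.2 FPKM and 14.2 FPKM in the untreated and IL-4 libraries of wild-type and then of TIF1a-KO. Its log2 ratios were -0.04 ± 0.06 (adjusted p = 0.69) and 0.10 ± 0.06 (adjusted p = 0.24), and the 95% counting interval of the wild-type ratio ran from -0.15 to 0.07. Tlr4 has the longest transcript of the 10 genes, 7891 bases, and long transcripts as a class ran low in the wild-type IL-4 library against the untreated one, by 0.42 on the log2 scale at this length. With that trend over length removed the wild-type ratio was 0.38 (adjusted p = 9.5e-10) and the TIF1a-KO ratio 0.21 (adjusted p = 0.0020), both under 1.5-fold. Its additive IL-4 effect in edgeR was then 0.31 (adjusted p = 2.1e-04), against 0.04 (adjusted p = 0.79) without the removal. The fit with the removal used only a variance shared over genes, so its p-value is not on the same footing. The ratio of Cd14 to Tlr4 in FPKM went from 4.78 to 2.34 in wild-type and from 4.56 to 2.31 in TIF1a-KO. The ratio of Tlr2 to Tlr4 went from 1.39 to 0.350 and from 1.26 to 0.361.

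Tlr1 and Tlr6 are neighbouring paralogs on chromosome 5, 19.5 kb apart (chr5:64924680-64933600 and chr5:64953092-64970942), and each pairs with TLR2. In wild-type Tlr1 was at 8.07 FPKM untreated and 9.27 FPKM with IL-4, and in TIF1a-KO at 16.5 FPKM and 12.6 FPKM. Its IL-4 log2 ratio was 0.20 ± 0.12 in wild-type (adjusted p = 0.32) and -0.38 ± 0.10 in TIF1a-KO (adjusted p = 2.4e-04, under 1.5-fold). Tlr6 was at 6.57 FPKM and 6.40 FPKM in wild-type and at 7.86 FPKM and 6.63 FPKM in TIF1a-KO, with ratios of -0.04 ± 0.15 and -0.24 ± 0.14. The level of Tlr2 went from 2.37 times that of Tlr1 to 0.507 times in wild-type and from 1.01 to 0.406 times in TIF1a-KO. Against Tlr6 it went from 2.91 to 0.734 times and from 2.12 to 0.772 times.

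**Figure D3:**
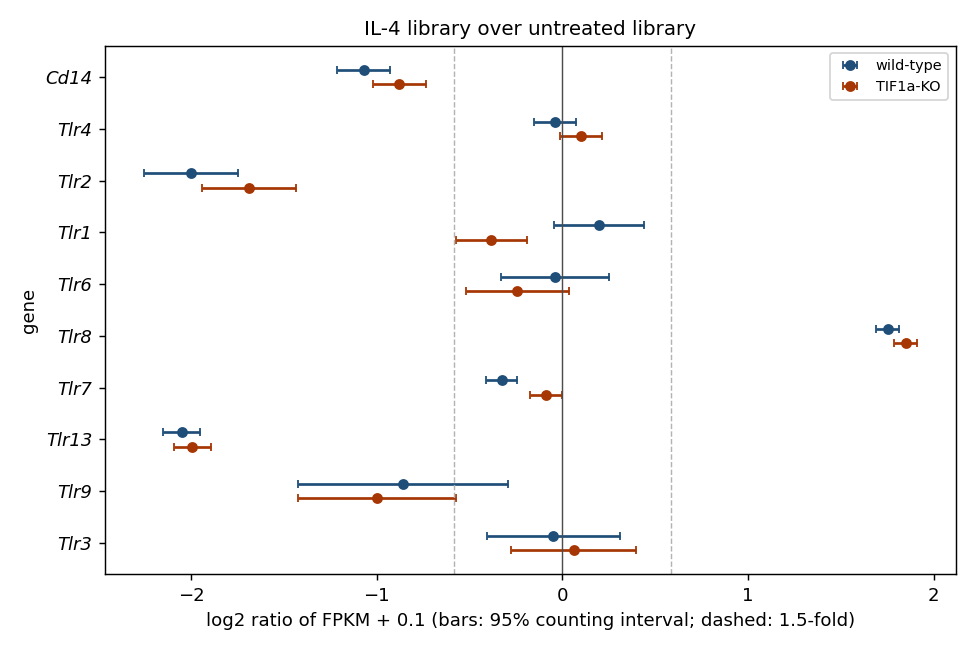
Log2 ratio of IL-4 over untreated library (FPKM + 0.1) for the 10 genes in wild-type (blue) and TIF1a-KO (orange), with bars for the 95% counting interval and dashed lines at 1.5-fold. Tlr8 lies at 1.75 and 1.85, Tlr13 at -2.05 and -1.99 and Tlr2 at -2.00 and -1.69, while the interval of Tlr1 runs from -0.05 to 0.44 in wild-type and lies below 0 in TIF1a-KO.

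Reads cannot always be told apart between Tlr1 and Tlr6, since their coding sequences share exact stretches. The longest is shown because the Tlr1 values rest in part on how such reads were divided. It has 229 bases, lies in the coding part of exon 4 of 4 of Tlr1 (chr5:64925537-64925765) and of exon 2 of 2 of Tlr6 (chr5:64953828-64954056), both on the minus strand, and is read 5′ to 3′ from the GENCODE M21 transcripts.
Tlr1 and Tlr6: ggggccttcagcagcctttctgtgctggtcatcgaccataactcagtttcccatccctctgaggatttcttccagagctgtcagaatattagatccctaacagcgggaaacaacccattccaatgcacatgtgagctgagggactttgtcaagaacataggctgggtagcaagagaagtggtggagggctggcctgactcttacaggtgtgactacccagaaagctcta

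Of all 100-base windows of the Tlr1 transcript 8.85% occur exactly in Tlr6, and 7.24% of those of Tlr6 occur in Tlr1. Tlr1 and Tlr6 were the only ones of the 10 genes with expected counts that were not whole. RSEM divides shared reads between genes by a model, so the split of those reads between the 2 genes is uncertain. Summed over both genes there were 441 expected reads untreated and 479 with IL-4 in wild-type, and 743 and 582 in TIF1a-KO.

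The second comparison asked which receptors differ between TIF1a-KO and wild-type libraries under the same treatment. Untreated, 2 of the 10 genes were called higher in TIF1a-KO, Tlr1 and Tlr9, and 0 lower, where 0.838% of all genes tested were called higher and 0.742% lower. In the IL-4 libraries only Tlr9 was called, again higher, where 3.05% of all genes were called higher and 0.764% lower. By the fold alone 2 and 1 of the 10 genes passed, against 4.22% and 6.76% of genes averaging 1 FPKM or more. Over the 10 genes the genotype ratios had a median of -0.04 untreated and 0.08 with IL-4, beside -0.004 and 0.02 for all genes tested. The IL-4 and genotype comparisons use the same 4 libraries and are not independent of each other.

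Tlr1 was 2.03-fold higher in untreated TIF1a-KO cells, with a log2 ratio of 1.02 ± 0.11 (adjusted p = 9.1e-20). With IL-4 the ratio was 0.44 ± 0.11 (adjusted p = 4.9e-04), or 1.36-fold. Both TIF1a-KO libraries were above both wild-type libraries. The ratio of Tlr1 to Tlr6 in FPKM was 1.23 and 1.45 in wild-type and 2.10 and 1.90 in TIF1a-KO. Tlr6 itself had genotype ratios of 0.26 ± 0.14 and 0.05 ± 0.15, neither called.

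Tlr9 was 1.85-fold higher untreated (log2 ratio 0.88 ± 0.21, adjusted p = 3.7e-04) and 1.67-fold higher with IL-4 (0.74 ± 0.29, adjusted p = 0.032). The wild-type IL-4 library was lowest and the untreated TIF1a-KO library highest, and the other two lay close together at 1.84 FPKM and 1.69 FPKM. After removal of the length trend the ratio with IL-4 was 0.69 and no longer called (adjusted p = 0.079). B cell markers summed lower in TIF1a-KO, at 4.70 FPKM against 5.89 FPKM untreated and 3.71 FPKM against 5.12 FPKM with IL-4. Dendritic cell markers, plasmacytoid and conventional together, summed higher, at 1.18 FPKM against 0.95 FPKM untreated and 0.86 FPKM against 0.79 FPKM with IL-4. Those sums rest on few reads, and the markers went both ways. Untreated, Zbtb46 had 14 reads in TIF1a-KO against 9 in wild-type, and Ccr9 had 3 against 6.14. In neither list was a gene called by genotype. The part of such cells in the genotype ratios of Tlr9 was not tested.

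For the other 8 genes no genotype ratio reached 1.5-fold. Tlr7 was lower in the untreated TIF1a-KO library (-0.21 ± 0.04, adjusted p = 1.6e-05) and Tlr8 higher in the TIF1a-KO IL-4 library (0.09 ± 0.02, adjusted p = 0.0015), both by small amounts. With the length trend removed the Tlr8 ratio was -0.09 (adjusted p = 9.3e-05). Tlr2, Cd14, Tlr4, Tlr13 and Tlr3 had genotype ratios between -0.19 and 0.24, and none passed the adjusted p in either treatment. With the length trend removed the ratio of Tlr4 with IL-4 was -0.29 and passed it (adjusted p = 2.8e-05), under 1.5-fold.

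**Figure D4:**
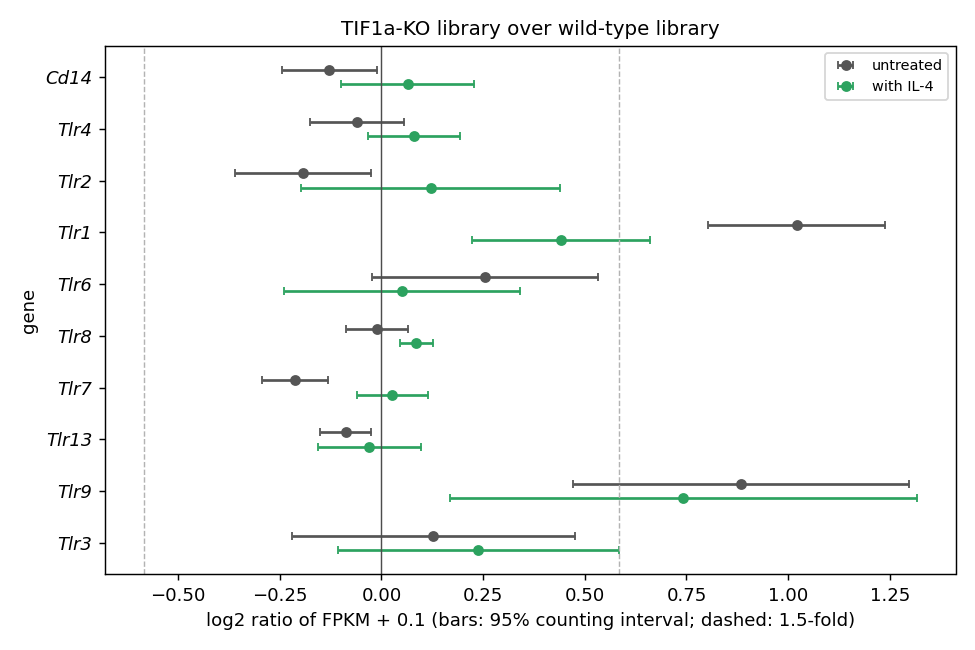
Log2 ratio of TIF1a-KO over wild-type library (FPKM + 0.1) for the 10 genes, untreated (grey) and with IL-4 (green), with bars for the 95% counting interval and dashed lines at 1.5-fold. Tlr1 lies at 1.02 and 0.44 and Tlr9 at 0.88 and 0.74, and the other 8 genes lie within 1.5-fold.

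An additive edgeR fit, with 1 residual degree of freedom from the 4 libraries, gave the IL-4 effect with genotype held and the genotype effect with treatment held. That residual is the difference of the IL-4 responses between the genotypes, not a spread between replicates. The p-values rest largely on a variance shared over genes (prior of 13.3 degrees of freedom). Among the alternatives that prior was 94.3 with DESeq2 size factors and infinite with the length trend removed, so those p-values rest on it still more. A difference of responses, as tested below for Tlr1, is not modelled. The fit called 1 of the 10 genes higher with IL-4 (Tlr8) and 4 lower (Tlr2, Tlr9, Tlr13 and Cd14), where 12.1% and 13.4% of all genes were called. The IL-4 effect of Cd14 was -0.97 (adjusted p = 3.8e-06) and that of Tlr9 -0.99 (adjusted p = 0.0021). For genotype it called Tlr1, 0.75 (adjusted p = 0.0093), and Tlr9, 0.87 (adjusted p = 0.041), both higher, where 1.30% of all genes were called higher and 0.373% lower. The 2 genotype calls were lost in DESeq2, with limma, and with every gene that had a read. Over the alternatives the adjusted p ran from 4.7e-12 to 0.37 for Tlr1 and from 0.0010 to 0.99996 for Tlr9. The lowest value of each came with the length trend removed, where the prior was infinite.

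Whether IL-4 responses differed between the genotypes was tested directly, as the difference of the log2 ratios against counting error. By an adjusted p below 0.05 together with a difference larger than 1.5-fold, 0 of the 10 genes were called, where 2.87% of 10532 genes were. The z test alone, without the fold, passed Tlr1, at -0.58 (95% interval -0.89 to -0.27, adjusted p = 0.0030), and Tlr7, at 0.24 (0.12 to 0.36, adjusted p = 0.0017), TIF1a-KO minus wild-type. Of the 50 other pathway genes described below, 9 passed the z test alone as well. The share of all genes that passed it without the fold is not given here. For Tlr8 the difference was 0.08 (-0.002 to 0.17), for Tlr13 0.06 (-0.08 to 0.20), for Tlr2 0.31 (-0.05 to 0.67) and for Cd14 0.19 (-0.01 to 0.39). When a biological coefficient of variation of 0.2 was added to each library, 0 of the 10 genes passed. Differences of the size seen here could not pass under that assumption, so this outcome says nothing about single genes.

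The other genes of the pathway were taken from 7 lists of 55 genes, all listed, 50 of them averaging 1 FPKM or more. IL-4 went with 4 higher and 8 lower calls in wild-type and 4 higher and 4 lower in TIF1a-KO. These are 7.27% and 14.5% of the 55 genes in wild-type and 7.27% each in TIF1a-KO. Of all genes, 4.91% were called higher and 7.87% lower in wild-type, and 5.29% and 4.03% in TIF1a-KO. Genotype went with 0 calls in either treatment. Few of all genes were called by genotype, with 0.838% higher and 0.742% lower untreated, and 3.05% and 0.764% with IL-4. The IL-4 log2 ratios of the pathway genes had a median of -0.13 in wild-type and -0.09 in TIF1a-KO. The genes called alike in wild-type and TIF1a-KO were 8 in number.

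Among the 5 partners, Cd180, a Toll-like receptor relative on the surface that restrains lipopolysaccharide responses, was at 109 FPKM and 117 FPKM untreated in wild-type and TIF1a-KO and at 50.2 FPKM and 49.1 FPKM with IL-4. Its log2 ratios were -1.11 and -1.25. Cd36, a scavenger receptor that assists Tlr2 and Tlr6, rose from 467 FPKM to 795 FPKM in wild-type and from 377 FPKM to 617 FPKM in TIF1a-KO. Ly96, the MD-2 partner of Tlr4, stayed between 20.9 FPKM and 23.6 FPKM in the 4 libraries. The ratio of Cd180 to Tlr4 went from 7.88 to 3.74 and from 8.85 to 3.46.

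Of the 10 genes of folding, trafficking and processing, 2 were called higher and 1 lower in each genotype. The endosomal proteases Lgmn and Ctsl, which cleave endosomal receptors, were the higher ones: Lgmn stood at 722 FPKM and 1209 FPKM in wild-type and at 815 FPKM and 1225 FPKM in TIF1a-KO. Ctsl stood at 654 FPKM and 1227 FPKM, and at 821 FPKM and 1270 FPKM. The call of Lgmn in TIF1a-KO was lost after removal of the length trend. Rab7b, a small GTPase of late endosomes that promotes the degradation of Tlr4 and Tlr9, fell from 112 FPKM to 44.6 FPKM and from 98.9 FPKM to 38.1 FPKM. Unc93b1, the carrier of the endosomal receptors, was at 172 FPKM to 209 FPKM in the 4 libraries and was not called.

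In the signalling lists, none of the 6 adaptors was called in both genotypes, and Myd88, which nearly all these receptors use, was at 28.4 FPKM and 23.7 FPKM in wild-type and at 27.6 FPKM and 20.6 FPKM in TIF1a-KO. Of 15 kinases and ubiquitin ligases 1 was called lower in both genotypes, the kinase Irak2, with log2 ratios of -0.77 and -0.60. Of 8 inhibitors of the signal, Tnip3 rose from 3.05 FPKM to 14.6 FPKM and from 3.39 FPKM to 15.4 FPKM, and its relative Tnip1 fell from 61.0 FPKM to 37.9 FPKM and from 61.5 FPKM to 37.5 FPKM. The 8 endosomal nucleases and solute carriers had 1 call, Slc15a4, lower in wild-type. Tirap, Traf3 and Irak3 were likewise called lower in wild-type and not in TIF1a-KO, and the calls of Tirap and Traf3 were lost after removal of the length trend. The difference of their IL-4 responses, TIF1a-KO minus wild-type, was 0.16 to 0.36 on the log2 scale with adjusted p of 0.11 to 0.48. By adjusted p and fold together 0 of the 50 pathway genes were called in that test, and by adjusted p alone 9 passed.

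**Figure D5:**
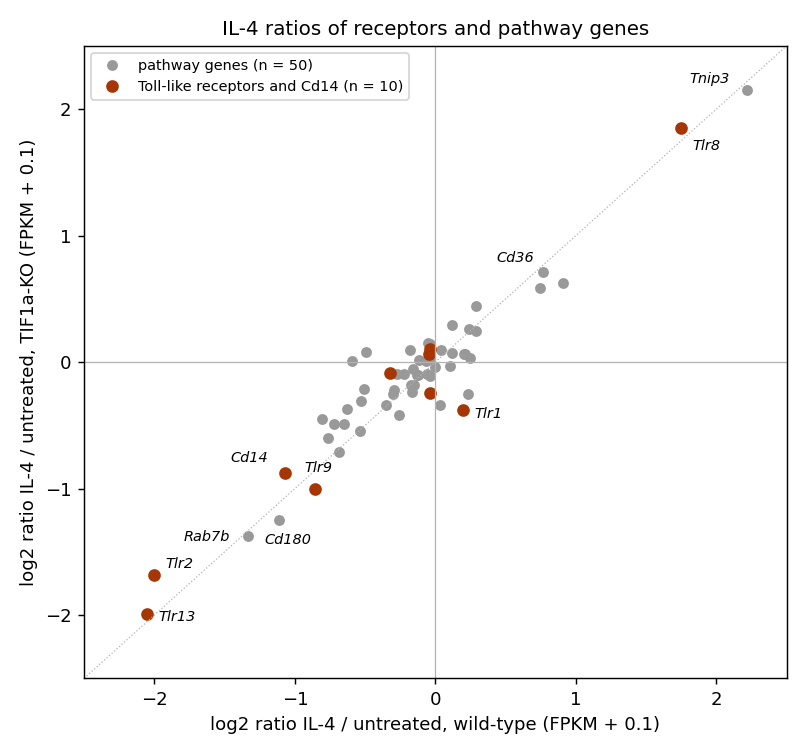
Log2 ratio of IL-4 over untreated library (FPKM + 0.1) in wild-type (horizontal) and TIF1a-KO (vertical), 1 point per gene, for the 10 receptor genes (orange) and 50 other pathway genes (grey), with a dotted line where both ratios are equal. Tnip3 and Tlr8 are the points at the upper right, and Tlr13, Tlr2, Rab7b and Cd180 those at the lower left.

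The pattern of each receptor over the 4 libraries was compared with that of 7463 genes averaging 5 FPKM or more, by the distance between log2 values centred over the libraries. For the 2 receptors of widest range the nearest genes were named. Nearest to Tlr13 were Cd24a (distance 0.213), Tlr2 (0.220) and Marchf9 (0.274), and nearest to Tlr2 were Ampd3 (0.140), Cgnl1 (0.216) and Tlr13 (0.220). Ampd3, an AMP deaminase, was at 20.8 FPKM, 5.38 FPKM, 17.3 FPKM and 6.04 FPKM in the untreated and IL-4 libraries of wild-type and then of TIF1a-KO, close to the course of Tlr2. Among the 10 genes Tlr3 and Tlr4 were the closest pair (0.175), and Tlr8 and Tlr13 the farthest (3.82). With 4 points per gene this is a description only.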

How the data were processed

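The authors mapped total RNA reads of 4 macrophage libraries to GRCm38 (mm10) with Bowtie and quantified genes with RSEM, whose versions and strand setting are not given in the sources used here. The deposited tables hold 1 library each with RSEM's expected counts, the transcript length and FPKM, which the authors derived from those counts and the effective length. Unlisted genes were set to 0. Of 16403 gene IDs, 16365 matched a symbol in a RefSeq table (GRCm38.p6). Samples were grouped by the labels' genotype and treatment, 1 library a group.

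The 10 genes and all gene lists were chosen with earlier results of these data known. Named genes were the 10, Trim24, list genes called in both genotypes or both treatments, partners or neighbours a result turned on, and the 3 nearest in pattern. Slc15a4, Tirap, Traf3 and Irak3 were named after their values were seen. One marker gene is not reported here, and the B cell marker sums leave it out.

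Expected counts were rounded and library pairs were tested gene by gene (Fisher's exact test, two-sided, scipy 1.17.1), adjusted after Benjamini and Hochberg (statsmodels 0.14.6) over genes with a read. Log2 ratios are on log2(FPKM + 0.1), which understates changes of low genes, with counting SE. The difference of responses used a z test on log2(count + 0.5) for genes of mean at least 1 FPKM. The additive model was fitted in edgeR 4.0.16 (TMM, filterByExpr, quasi-likelihood). DESeq2 1.42.0, limma 3.58.1, pseudocounts of 0.01 and 1 FPKM, TMM-scaled CPM, a fold of 2, an assumed biological coefficient of variation of 0.2 and removal of the length trend by a lowess curve (fraction 0.3) were alternatives. Tests were checked on simulated data with 3-fold changes and little or no variation beyond counting. That check cannot show how the tests fare under variation between mice. At 3 reads the floor was 0.267 CPM to 0.272 CPM. Both floors and intervals reflect counting alone.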

Additional observations from a re-analysis of the deposited data

Results flagged for a closer look

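By adjusted p alone, Tlr1 and Tlr7 passed the z test of the difference of IL-4 responses, which covers counting error only. With a difference larger than 1.5-fold also required, 0 of the 10 genes were called, where 2.87% of 10532 genes were. The share of all genes passing without the fold is not given here. Without the fold, 9 of the 50 other pathway genes passed that test as well. For Tlr1 the difference, TIF1a-KO minus wild-type, was -0.58 on the log2 scale (adjusted p = 0.0030), from 0.20 in wild-type and -0.38 in TIF1a-KO. For Tlr7 it was 0.24 (adjusted p = 0.0017), from -0.33 and -0.09. With the length trend removed the difference was -0.59 for Tlr1 (adjusted p = 0.0062) and 0.16 for Tlr7 (adjusted p = 0.12). With an added biological coefficient of variation of 0.2 neither passed the adjusted p, and differences of this size could not pass under that assumption. Groups of 1 library could not be examined for samples that stand apart.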

How the results depend on the processing

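The libraries carry no replicate numbers, and the additive fit, which holds the other factor fixed, is the one blocked comparison. Of 330 values of single genes under the alternatives, 294 kept their direction and their side of the threshold. The IL-4 calls of Tlr2, Tlr8 and Tlr13 held under all alternatives run. Assuming a biological coefficient of variation of 0.2, the called genes were 3 in place of 5 for IL-4 in either genotype (Cd14 and Tlr9 were lost), 0 in place of 2 for genotype untreated and 0 in place of 1 with IL-4. A 2-fold threshold left 4 for IL-4 in wild-type (Tlr9 was lost) and 3 in TIF1a-KO (Tlr9 and Cd14 were lost). For genotype it left 1 untreated and 0 with IL-4, and a pseudocount of 1 FPKM or removal of the length trend also left 0 with IL-4. The additive IL-4 calls went from 5 to 6 with the length trend removed, which added Tlr4 (0.31, adjusted p = 2.1e-04). That fit used only a variance shared over genes. The additive genotype calls went from 2 to 0 with DESeq2, limma and every gene with a read. The IL-4 call of Tlr9 was also lost in DESeq2 (adjusted p = 0.18), and in wild-type with a pseudocount of 1 FPKM. For the difference of responses 1 gene, Tlr1, was called in place of 0 after the length trend was removed.

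Signs changed for small ratios. With the length trend removed, the wild-type IL-4 ratios of Tlr3 and Tlr4 were 0.0935 and 0.38. The genotype ratios with IL-4 of Tlr4, Tlr7 and Tlr8 were -0.29, -0.0497 and -0.0868, and the additive genotype effects of Tlr4, Tlr8 and Cd14 were -0.20, -0.0556 and 0.0153. The differences of responses of Tlr3, Tlr4, Tlr8 and Tlr13 were then -0.00988, -0.17, -0.0821 and -0.0389. With TMM scaling and with the assumed variation, the wild-type IL-4 ratio of Tlr6 was 0.0014 in both, and the untreated genotype ratio of Tlr8 was 0.0083 in both. With the assumed variation the genotype ratio of Tlr7 with IL-4 was -0.0030. With 1 library a group, counting error alone sets every interval, and Tlr9, with 38 to 134 reads, has the widest.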
